A study of Mus musculus with 17 samples.

Results

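The regions described here are the distal sites at which a RUNX1 peak and a CHD7 peak were called in every library of the study. Peaks of the 8 RUNX1 lists were merged where they overlapped by at least 1 bp, which gave 21664 RUNX1 sites. Of these, 4833 were called in all 8 RUNX1 lists, 1530 of the 4833 overlapped a CHD7 peak in all 8 CHD7 lists, and 1022 of the 1530 lay more than 1 kb from both ends of every protein-coding gene. The sites were chosen by peak calls in the same lists, so being called everywhere is a condition of membership and not a result. "Distal" means distant from the outer ends of a gene, so the sites include starts of shorter transcripts inside genes and starts of non-coding genes: 76 of the 1022 (7.44%) overlapped a RefSeq promoter window, which runs from 250 bases before to 50 after a start.

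The study mapped both proteins by ChIP-seq in the mouse line 416B, which consists of myeloid progenitors. All cells carried a plasmid with a tetracycline transactivator and silencer under an Ef1alpha promoter. CM cells also carried Cbfb-Myh11 type A cDNA joined to mCherry under a tetracycline-responsive element, and Control cells the same construct without the fusion cDNA. Each construct was studied without doxycycline (Control -Dox, CM -Dox) and after 1 ug/ml doxycycline for 24 hours (Control +Dox, CM +Dox), with 2 libraries per condition and antibody, so the fusion was induced in the CM +Dox cells. Cultures were grown from sorted single cells and clones were selected, so a difference between the constructs cannot be told apart from a difference between clones. The labels do not say whether the 2 libraries of a condition came from separate cultures. Peak lists measure no expression, so the labelled cell type could not be checked by its marker transcripts.

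RUNX1 binds DNA through its Runt domain and gains affinity and stability by pairing with CBFB. The fusion CBFB-MYH11, made by an inversion of human chromosome 16, joins most of CBFB to the tail of a smooth muscle myosin, and it alters RUNX1 function in acute myeloid leukaemia. CHD7 is an ATP-dependent chromatin remodeller with chromodomains that is often found at enhancers, and the study's title concerns its interaction with Runx1. Distal regulatory regions of blood cells are commonly bound by RUNX1 together with other factors.

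Sequences are shown for sites where RefSeq (GRCm38.p6) places a transcript start inside the site, and for microRNAs encoded near a site, since no genome sequence was used here for the other sites. The windows give the 250 bases before the start, 5′ to 3′ on the strand of the transcript, with the RUNX core TGTGGT or its reverse complement ACCACA in capitals. Ptpn22 (chr3:103860027-103860276, + strand) and Gm39852 (chr2:74606233-74606482, − strand) are shown as examples with a core within 10 bp of the mean RUNX1 peak centre. Their sites had mean RUNX1 ranks of 83.5 and 92.5. Gm51814 (5.69 bp) and Gm19619 (9.94 bp) also had such a core and are not shown. Mean RUNX1 ranks of those sites were lower, 10.5 and 64.5. Gm34254 (chr5:108405575-108405824, − strand) is shown for the low RUNX1 ranks of its site with induced CM, F630028O10Rik (chrX:96239676-96239925, + strand) because it neighbours Mir223, and Nkiras2 (chr11:100622705-100622954, + strand) because its site had the highest mean CHD7 rank among sites with such a window. These windows were chosen after their values were seen.
Ptpn22: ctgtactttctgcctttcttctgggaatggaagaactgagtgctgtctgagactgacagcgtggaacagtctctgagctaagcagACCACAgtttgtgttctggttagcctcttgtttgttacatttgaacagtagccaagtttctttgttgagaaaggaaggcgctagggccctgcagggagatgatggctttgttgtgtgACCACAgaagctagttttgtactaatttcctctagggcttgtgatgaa
Gm39852: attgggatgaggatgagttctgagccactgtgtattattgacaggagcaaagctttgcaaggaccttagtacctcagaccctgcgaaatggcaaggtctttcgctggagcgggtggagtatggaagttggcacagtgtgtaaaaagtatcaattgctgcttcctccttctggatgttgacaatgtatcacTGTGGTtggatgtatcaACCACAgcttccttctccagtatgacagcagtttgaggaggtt
Gm34254: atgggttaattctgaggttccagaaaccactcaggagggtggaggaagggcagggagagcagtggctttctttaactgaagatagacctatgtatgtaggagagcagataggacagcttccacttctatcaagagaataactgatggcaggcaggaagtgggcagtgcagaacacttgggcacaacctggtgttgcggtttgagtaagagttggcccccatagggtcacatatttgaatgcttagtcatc
F630028O10Rik: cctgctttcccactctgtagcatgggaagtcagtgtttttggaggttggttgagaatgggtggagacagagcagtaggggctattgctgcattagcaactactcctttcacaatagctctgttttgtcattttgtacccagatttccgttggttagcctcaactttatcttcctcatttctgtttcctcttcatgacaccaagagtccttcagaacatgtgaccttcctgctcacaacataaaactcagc
Nkiras2: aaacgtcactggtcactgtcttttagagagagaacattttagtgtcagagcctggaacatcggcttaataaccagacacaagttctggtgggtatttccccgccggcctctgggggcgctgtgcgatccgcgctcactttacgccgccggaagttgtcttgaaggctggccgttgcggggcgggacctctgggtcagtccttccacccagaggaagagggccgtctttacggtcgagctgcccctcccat

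The mature microRNAs below belong to hairpins within 5 kb of a site, with the seed (bases 2 to 8) in capitals. Other microRNAs with hairpins as near to a site are not printed. No seed is shared among those printed.
miR-223-3p: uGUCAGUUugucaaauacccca
miR-23a-3p: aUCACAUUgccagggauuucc
miR-27a-3p: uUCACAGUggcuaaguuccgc
miR-24-3p: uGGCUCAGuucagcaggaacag
let-7i-5p: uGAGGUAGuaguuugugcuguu
miR-22-3p: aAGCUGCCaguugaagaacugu

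The motif TGTGGT, searched on both strands, occurred in 22 of the 81 windows that overlapped a site (27.2%) and in 16.8% of all 32851 promoter windows. Of the 53 windows lying wholly inside a site, 15 held it (28.3%). The short ETS core GGAA was in 97.5% of the 81 windows and 96.0% of all, and the GATA core GATA in 55.6% and 57.9%, while the E-box CANNTG was in 71.6% and 72.3%. In the Ptpn22 window, at the start of a tyrosine phosphatase of lymphoid and myeloid cells, the core nearest to the mean RUNX1 centre was 6.19 bp from it. In the Gm39852 window the distance was 5.31 bp, and the cores started at bases 191 and 208 of the window. A match is a run of letters in a window and not a measured binding site.

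Each site's RUNX1 score, the −log10 of the peak's p-value that the authors deposited, was turned into a percentile rank within its own library among the 4833 sites called in all 8 RUNX1 lists (100 the highest score). The CHD7 rank was set likewise among the 4852 CHD7 sites called in all 8 CHD7 lists. A rank is relative: where some sites move up, others must move down, and it says nothing about the amount of protein bound. Read depths are unknown. CHD7 scores were coarse, with many ties. RUNX1 lists held 8140 to 16163 peaks and CHD7 lists 16323 to 37698, and the shortest RUNX1 lists were those of CM +Dox, 8140 and 9710 peaks. Replicate 1 of RUNX1 in Control -Dox has peak names with a +Dox tag that its label lacks. It stayed in its labelled group. Without it, the CM +Dox difference in median RUNX1 rank and the counts of sites below and above changed by less than 1.5 times. The doxycycline contrast in Control cells was not repeated without it.

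At the 1022 sites, CHD7 peaks as called were broader than RUNX1 peaks and centred close to them. The lists end at unlike p-value thresholds, 0.01 for CHD7 and 1e-07 or 1e-09 for RUNX1, so the widths are not strictly comparable. The rule asks for overlapping peaks, so close centres are in part a condition of membership. The median distance between the CHD7 and the RUNX1 peak centre was 93.5 to 121 bp over the 8 conditions and replicates. The median CHD7 peak width ran from 594 to 874.5 bp, against 352.5 to 452 bp for RUNX1, and the CHD7 peak was the wider at 72.9% to 88.6% of sites. More than 1 CHD7 peak lay at 2.64% to 5.68% of sites. The order of the sites by RUNX1 rank was only weakly related to their order by CHD7 rank. Across the 1022 sites of a library, Spearman's rho between the RUNX1 and the CHD7 rank was 0.168 to 0.291 in the 6 pairs without induced CM, and 0.046 and 0.157 in the CM +Dox pairs. These are descriptions over sites of the same library, and sparse CHD7 scores limit them.

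RUNX1 ranked these sites above the other distal sites. Distal sites called in all 8 RUNX1 lists numbered 2920, of which the 1022 are 35.0%, 1681 had CHD7 in 1 to 7 lists, and 217 had it in none. The median RUNX1 rank of the 1022 exceeded that of the 217 sites without CHD7 by 14.0 ± 4.80 points (SD over 8 libraries), with a range of 5.76 to 20.5, and it was higher in 8 of 8 libraries. Against the 1681 sites the excess was 4.59 ± 1.98 points, again in 8 of 8 libraries. RUNX1 peaks were also wider at the 1022 than at the 217 sites, by 87.9 ± 13.3 bp (8 of 8 libraries). With only peaks at or above the median score of their antibody, the excess over sites without CHD7 was 26.3 points. Scores and calls come from the same lists, so these classes are not independent of the ranks and no test was run on them.

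With induced CM the sites lay lower in the RUNX1 order. Their median RUNX1 ranks were 62.9 and 69.7 (Control -Dox), 61.9 and 68.3 (Control +Dox), 67.5 and 70.9 (CM -Dox) and 48.1 and 60.0 (CM +Dox). Both CM +Dox values lay below all 6 others. The difference between the means was −12.8 points, with a pooled SD between replicates of 5.50, and it was −15.9 among replicates numbered 1 and −9.66 among those numbered 2. Without replicate 1 of CM +Dox and with the sites chosen and ranked again (1163 sites) the difference was −3.77, a setting that changes the library and the sites together. It was −5.55 with the same number of peaks in every list (538 sites) and −5.61 with only peaks at or above the median score of their antibody (241 sites).

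**Figure D1:**
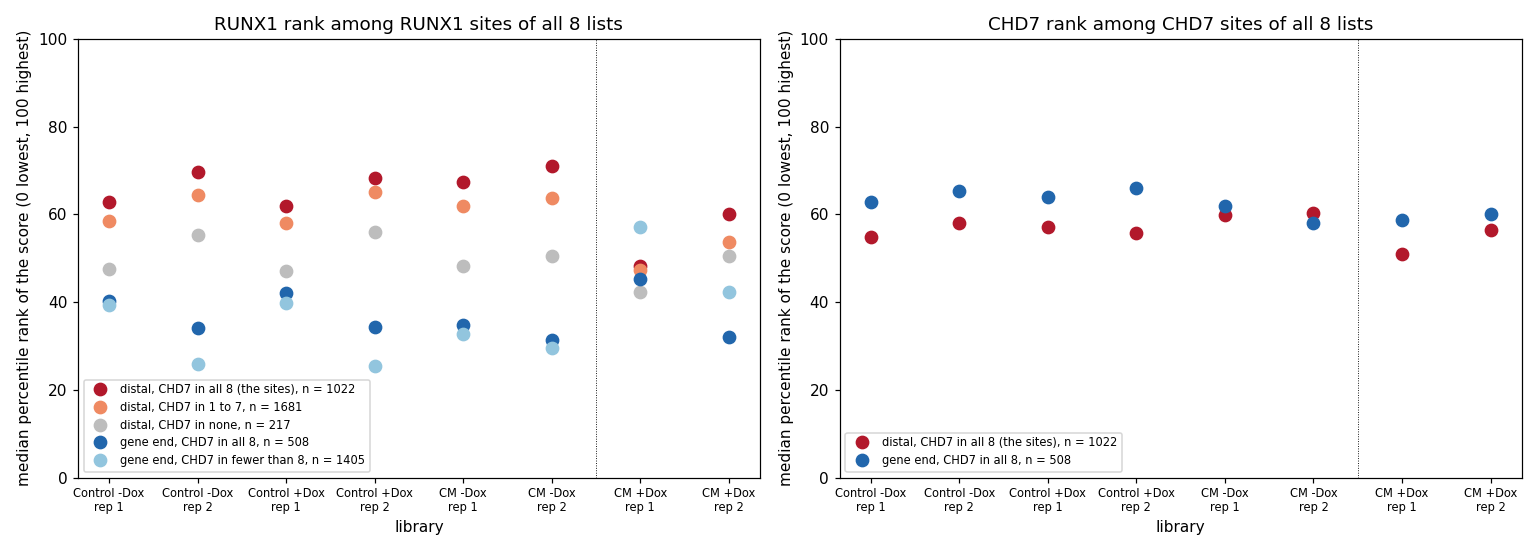
Median percentile rank of the RUNX1 score (left) and the CHD7 score (right) in each library, one point per library and class of sites, with CM +Dox to the right of the dotted line. The distal sites with CHD7 in all 8 lists run from 61.9 to 70.9 for RUNX1 in the 6 libraries without induced CM and stand at 48.1 and 60.0 in CM +Dox.

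Other distal sites with CHD7 also lay lower. The difference was −11.4 points for distal sites with CHD7 in 1 to 7 lists and −4.36 for those without CHD7. At gene ends the difference was 2.60 for the 508 sites with CHD7 in all 8 lists and 17.6 for the 1405 with CHD7 in fewer. Ranked among the 2920 distal sites alone, the difference of the 1022 sites was −2.37 points. Both CM +Dox medians lay below all others at distal sites with CHD7 in 1 to 7 lists, and above all others at gene-end sites with CHD7 in fewer than 8. They overlapped at distal sites without CHD7 (42.4 and 50.4 against 47.0 to 55.9). They also overlapped at gene-end sites with CHD7 in all 8 lists (45.3 and 32.1 against 31.3 to 42.0). The part of CHD7 in the difference was not tested.

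Site by site, RUNX1 ranks in both CM +Dox libraries lay below all 6 others at 288 of the 1022 sites (28.2%) and above all 6 at 140 (13.7%). The same calls were made at 22% and 24% of all 4833 RUNX1 sites, and at 28.8% and 15.9% of the 2920 distal ones, so the shares of the 1022 are close to those of distal sites in general. Without CM +Dox replicate 2 the count below was 461, and without replicate 1 the count above was 328, since a call then asks for 1 library only. The median shift of a site, the mean of CM +Dox minus the mean of the 6 others, was −4.80 points, and 60.7% of sites were lower. Doxycycline in Control cells moved the median by −0.251 points, and 0.978% of sites by more than 20 points, against 35.0% of sites for CM +Dox minus CM -Dox. Over all 4833 RUNX1 sites these shares were 1.74% and 43.6%. The Control contrast includes the Control -Dox library whose peak names carry a +Dox tag. Were that library treated, the contrast would in part set +Dox against +Dox. Between the uninduced constructs, 11.6% of the sites and 11.1% of all RUNX1 sites differed by more than 20 points.

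The order of the 1022 sites by RUNX1 rank was much the same in all libraries without induced CM. Spearman's rho over the sites was 0.838 to 0.959 in the 15 pairs of those 6 libraries, 0.634 to 0.715 between a CM +Dox library and any of them, and 0.857 between the CM +Dox libraries. For CHD7 the same values were 0.361 to 0.571, 0.268 to 0.423 and 0.498. The lower CHD7 values stand beside its coarse scores.

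For CHD7 the groups overlapped. The median CHD7 ranks of the sites were 54.8 and 58.0 (Control -Dox), 57.2 and 55.8 (Control +Dox), 59.9 and 60.3 (CM -Dox) and 51.0 and 56.4 (CM +Dox). The CM +Dox values overlapped the others, since 56.4 lies above 54.8 and 55.8. The difference was −3.94 points with a pooled replicate SD of 2.26, and it was −11.7 without CM +Dox CHD7 replicate 2, −7.60 without Control -Dox CHD7 replicate 1 and −6.85 without CM +Dox RUNX1 replicate 1. It was −6.37 against CM -Dox alone.

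CHD7 ranks of both CM +Dox libraries lay below all 6 others at 107 sites (10.5%) and above all 6 at 65 (6.36%). Over all CHD7 sites called in 8 lists the shares were 6.37% and 6.22%, and over the distal ones 6.83% and 7.16%. RUNX1 and CHD7 were both below at 69 sites (6.75%) and both above at 14 (1.37%), while they went opposite ways at 7 and 7. Joint calls were not counted at other sites bound by both proteins, so these counts have no background to be read against. Across the 1022 sites the RUNX1 shift and the CHD7 shift had a Spearman's rho of 0.337. The counts of CHD7 calls depend on which CM +Dox library is used, being 230 below and 175 above without replicate 1, and 250 and 196 without replicate 2, where a call asks less of the remaining library.

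**Figure D2:**
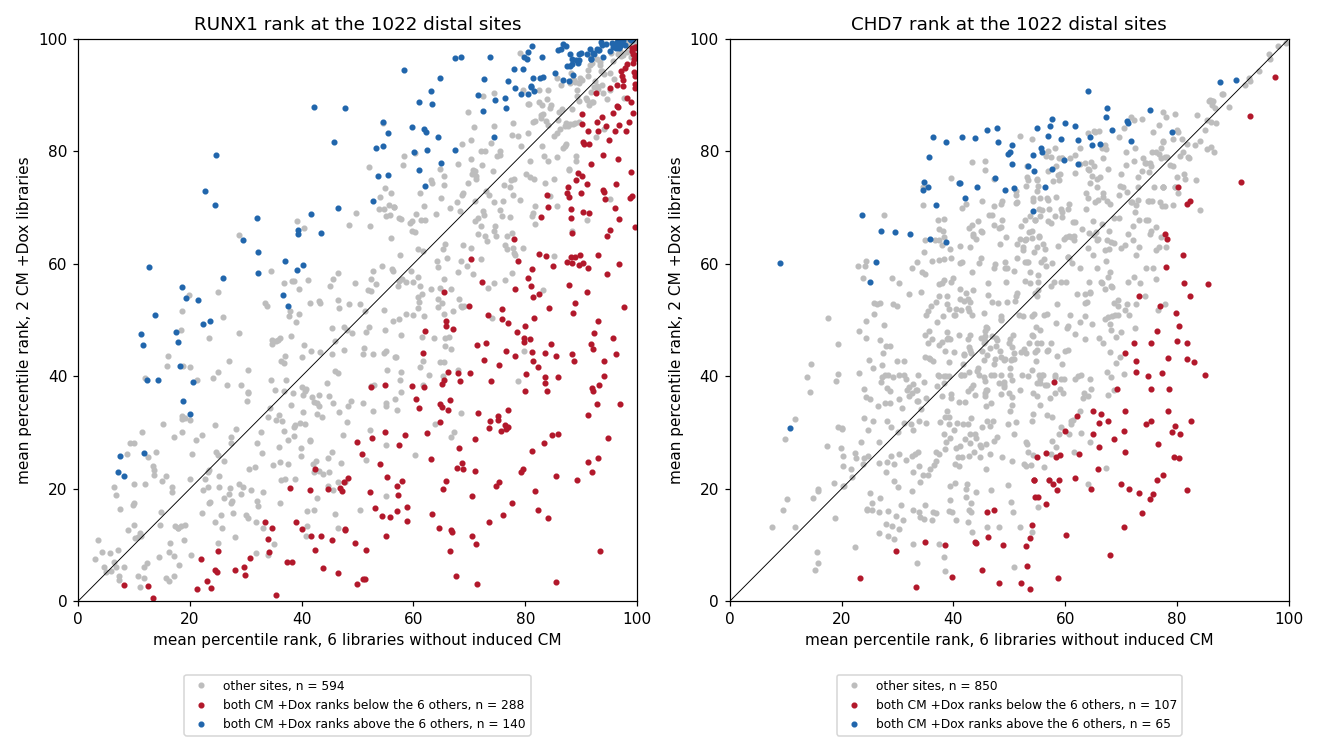
Each point is a distal site, with its mean percentile rank over the 6 libraries without induced CM on the x axis and over the 2 CM +Dox libraries on the y axis, for RUNX1 (left) and CHD7 (right). Red marks the 288 RUNX1 and 107 CHD7 sites with both CM +Dox ranks below the 6 others, blue the 140 and 65 above, and the line marks equal ranks.

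RUNX1 peaks at the sites were narrower with induced CM. Median widths were 418 and 434 bp (Control -Dox), 411 and 420.5 bp (Control +Dox), 416.5 and 452 bp (CM -Dox) and 352.5 and 386 bp (CM +Dox). Both CM +Dox widths lay below the 6 others, with a difference of −56.1 bp and a pooled replicate SD of 18.5 bp. Over all 4833 RUNX1 sites the difference was −36.5 bp. It was −43.5 bp at distal sites with CHD7 in 1 to 7 lists and −32.5 bp at those without CHD7. At gene ends it was −64.4 bp with CHD7 in all 8 lists and −5.17 bp with CHD7 in fewer. CHD7 widths differed by −24.3 bp with a replicate SD of 90.2 bp, and the sign turned without CM -Dox replicate 2 (10.5 bp) or CM +Dox replicate 1 (36.3 bp), so no direction can be given for CHD7.

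**Figure D3:**
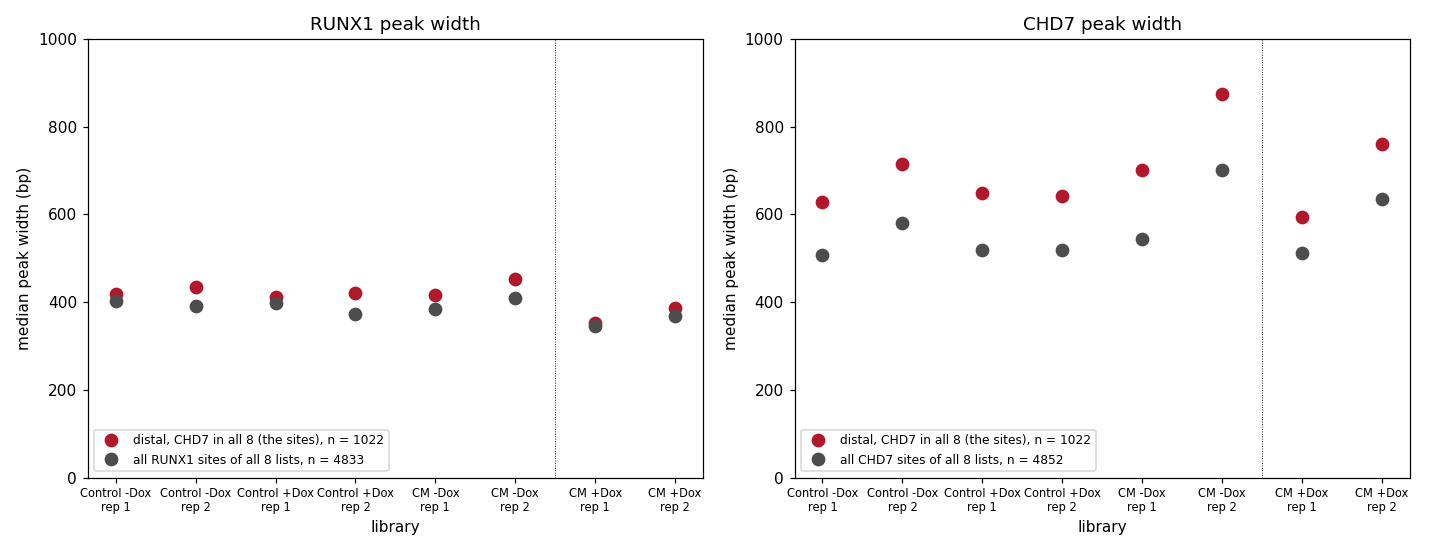
Median peak width in base pairs per library at the 1022 distal sites (red) and at all sites called in the 8 lists of the antibody (grey). RUNX1 widths of the sites are 352.5 and 386 bp in CM +Dox and 411 to 452 bp in the 6 other libraries, while CHD7 widths vary from 594 to 874.5 bp without such a division.

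The rule admits no site that lost its peak, so the ranks of the 1022 describe only sites that kept their calls. Another 605 distal sites were called in 15 of the 16 libraries. The missing library was a CM +Dox RUNX1 library at 173 of them, 139 for replicate 1 and 34 for replicate 2, and any of the 6 other RUNX1 libraries at 43. A CM +Dox CHD7 library was missing at 179, of which 152 were replicate 1, and another CHD7 library at 210. Distal RUNX1 sites called in the 6 libraries without induced CM and in neither CM +Dox library, with CHD7 in the same 6, numbered 305. Over those 6 libraries, where the fusion was not induced, their median RUNX1 rank lay 33.8 ± 6.86 points below that of the 1022 sites (6 of 6). The 305 were chosen for having no call in the CM +Dox lists, the shortest RUNX1 lists. Calls and scores come from the same lists, so their lower rank is in part a condition of the choice.

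Of the 1022 sites, 526 lay inside a protein-coding gene (51.5%, Wilson 95% interval 48.4% to 54.5%, counting error only). The share was 52.9% (50.6% to 55.3%) of the 1681 distal sites with CHD7 in 1 to 7 lists and 69.6% (63.2% to 75.3%) of the 217 without CHD7. The median distance of the 1022 from the nearest gene end was 22.5 kb, against 12.7 kb for those 217 and 15.7 kb for distal sites with CHD7 in 1 to 7 lists. 145 sites (14.2%) were more than 100 kb from any gene end. A neighbour among the 1022 within the usual stitching distance for super-enhancers, the default of the ROSE program, was present at 138 sites (13.5%) and, counted within its own class, at 13.1% of distal sites with CHD7 in 1 to 7 lists and 5.07% of the 217, a class with fewer sites to be neighbours. The merged sites had a median width of 547 bp.

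RUNX1 ranks in CM +Dox lay below all others most often at sites far from gene ends. Distance was taken to the nearest gene end, so sites deep inside long genes count as far. Among the 145 sites over 100 kb away, 37.9% were below and 3.45% above. Among the 308 sites at 5 to 20 kb, 21.4% were below and 17.9% above, and the 168 sites at 1 to 5 kb had 27.4% and 16.1%. Inside genes the shares were 25.9% and 17.1%, and outside genes 30.6% and 10.1%. These are shares of sites and were not tested. All 2920 distal RUNX1 sites had 28.8% below and 15.9% above, but their shares by distance were not computed. The pattern with distance is therefore not shown to be particular to these sites.

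**Figure D4:**
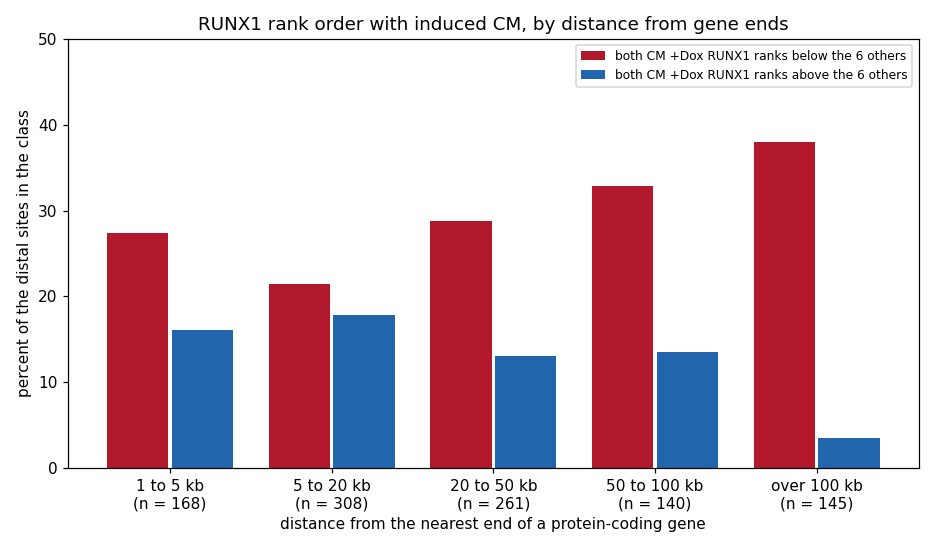
Percent of distal sites in each class of distance from the nearest protein-coding gene end whose 2 CM +Dox RUNX1 ranks lie below (red) or above (blue) the ranks of the 6 other libraries. Red bars run from 21.4% at 5 to 20 kb to 37.9% over 100 kb, where the blue bar is 3.45%.

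Transcription factors of stem and progenitor cells were the list with the largest share of genes having a site. A gene was given a site inside its body or, for sites outside genes, the nearest gene within 100 kb. By that rule 785 of 21887 protein-coding genes (3.59%) had a site, and 93 sites had no gene. Of 24 listed stem and progenitor factors, 8 had 13 sites between them (33.3%), as did 5 of 20 chromatin remodellers and modifiers (25%), 5 of 25 myeloid factors and effectors (20%), 4 of 24 cytokine receptor and signalling genes (16.7%), and 3 of 20 megakaryocyte and mast cell genes (15%). Sites were given to 2 of 20 cell cycle genes. None of 16 lymphoid, 24 cytosolic ribosomal protein and 11 liver genes had a site. Lists were not matched for gene length or for the open space around genes, and nearness does not show which gene a site serves.

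The 13 sites of stem and progenitor factors included 6 that were low in the RUNX1 order of CM +Dox. RUNX1 ranks of both CM +Dox libraries were below all others at 6 of the 13 and above at 0, with a median shift of −23.2 points, beside 28.2%, 13.7% and −4.80 for all 1022 sites. At the site nearest to Runx1 itself, outside the gene (chr16:92867286-92867745, 41.2 kb from its nearer end), RUNX1 ranks were 74.6 and 82.7 (Control -Dox), 65.6 and 83.9 (Control +Dox), 76.6 and 77.6 (CM -Dox) and 35.1 and 32.9 (CM +Dox). The CM +Dox values stood apart from the rest, a shift of −42.9 points. CHD7 ranks there, 34.1 and 38.1 against 18.3 to 75.2 (median 65.3), overlapped.

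Ikzf2 encodes Helios, a zinc finger factor of the Ikaros family, and its 3 sites within 18.1 kb formed a run, of which there were 8 with 3 sites each. At the middle site (chr1:69507504-69508027) RUNX1 ranks were 21.0 and 37.0 in CM +Dox against 90.8 to 97.5 (median 95.5) in the others, and CHD7 ranks were 6.81 and 1.37 against 18.3 to 84.4 (median 63.1). Both proteins ranked lower there in both CM +Dox libraries, and the mean shifts were −65.7 and −54.7 points. The neighbour at chr1:69496020-69496501 had RUNX1 ranks of 75.6 and 75.7 against 83.4 to 95.2 (median 90.2). At chr1:69513488-69514079 the CM +Dox libraries disagreed, with 48.1 and 87.5 against 86.7 to 94.2 (median 91.9).

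Runx2, a paralogue best known from bone, had 3 sites inside the gene. At chr17:44700334-44700754 RUNX1 ranks were 35.7 and 20.5 in CM +Dox and 74.7 to 89.5 (median 84.2) in the others, with no overlap. At chr17:44654441-44655055 they were 83.2 and 86.2 against 74.5 to 87.2 (median 86.3), within the range of the others. Meis1, a homeobox factor of stem cells and leukaemia, had ranks of 52.3 and 68.2 against 81.7 to 94.2 (median 88.6) at chr11:18924582-18925293, while its CHD7 ranks, 88.3 and 75.1 against 68.2 to 83.5 (median 80.0), overlapped. Erg, an ETS factor, had 18.2 and 19.7 against 29.8 to 74.6 (median 62.2) at chr16:95439739-95440223. The Lmo2, Hhex and Mecom sites showed no such separation for RUNX1, while at the Hhex site (chr19:37448283-37448662) CHD7 ranks of 74.3 and 73.0 lay above 3.46 to 67.1.

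**Figure D5:**
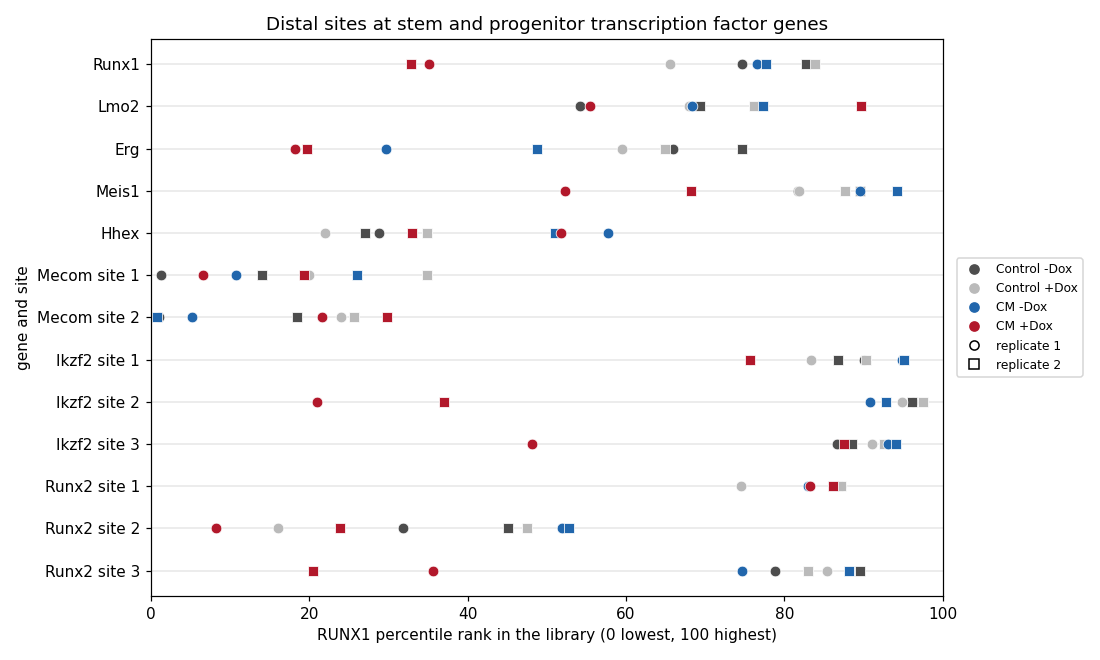
RUNX1 percentile rank in each of the 8 libraries (x axis) at the 13 distal sites of stem and progenitor transcription factor genes (y axis, sites of a gene numbered by position), with colour for the condition and shape for the replicate. At the Runx1, Erg and Meis1 sites, Ikzf2 sites 1 and 2 and Runx2 site 3 both red CM +Dox points lie left of all others.

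Cytokine receptor sites lay on different sides of the other libraries. Near Kit, the stem cell factor receptor (chr5:75730602-75731205, 73.9 kb away), RUNX1 ranks were 59.5 and 79.8 in CM +Dox against 84.5 to 92.6 (median 87.6). In Tgfbr2, a TGF-beta receptor, they were 53.9 and 15.3 against 56.6 to 77.2 (median 65.0) at chr9:116160755-116161343. The site near Ifngr1, an interferon gamma receptor chain (chr10:19559728-19560191), ranked higher, with 95.9 and 96.9 against 67.8 to 87.8 (median 81.7). Kit and Tgfbr2 sites thus lay below, and the Ifngr1 site above, all other libraries.

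In Flt3, a receptor of early progenitors, the constructs differed without the fusion. At chr5:147388985-147389416 RUNX1 ranks were 49.2 and 52.3 (Control -Dox), 41.5 and 53.8 (Control +Dox), 91.5 and 90.5 (CM -Dox) and 65.4 and 84.3 (CM +Dox). All 4 CM values exceeded all 4 Control values. The second Flt3 site (chr5:147392636-147393125) had 79.8 and 70.3 in CM +Dox within the 59.7 to 81.0 of the others.

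Of 7 myeloid factor and effector sites, 1 was above for RUNX1 and 0 below. That site lay 3.08 kb from Irf2, an interferon regulatory factor (chr8:46850541-46850968), with 91.4 and 94.0 against 84.5 to 90.6 (median 86.4). Near Itgam, which encodes the CD11b integrin chain (chr7:128048760-128049577), CHD7 ranks were 6.81 and 34.8 in CM +Dox against 46.9 to 81.5 (median 78.4), below all others, while RUNX1 ranks overlapped. Fcgr3, an Fc receptor, and Irf1 sites showed overlapping ranks for both proteins.

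Plek, a protein kinase C substrate of platelets and leukocytes, had 3 sites that differed among themselves. At chr11:16969421-16970040 RUNX1 ranks of 64.9 and 71.5 in CM +Dox lay above the 19.9 to 57.6 of the others, and CHD7 ranks of 45.5 and 68.2 above 15.1 to 41.3. At chr11:17004779-17005323 RUNX1 ranks of 56.2 and 64.6 lay below 73.0 to 85.1, while CHD7 ranks of 56.0 and 64.3 lay above 4.19 to 15.2. The middle site (chr11:16976708-16977500) was near the top of the RUNX1 order everywhere, with 94.8 and 98.8 and 98.6 to 99.2.

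Among remodeller genes, the site 44.2 kb from Chd7 itself (chr4:8912680-8913831) had RUNX1 ranks of 64.0 and 71.3 in CM +Dox and 59.8 to 76.2 (median 73.5) in the others, which overlapped. Cbfb and Myh11 had no site. Near Tet2, which encodes a DNA demethylation enzyme, chr3:133623010-133624352 had RUNX1 ranks of 93.0 and 93.8 in CM -Dox, 87.4 and 89.0 in CM +Dox, and no more than 80.9 in any Control library, so the CM libraries stood above the Control libraries with or without doxycycline. In Chd2, a relative of Chd7, chr7:73537138-73538198 ranked above all others in CM +Dox for RUNX1, with 87.3 and 74.6 against 43.7 to 71.0 (median 50.5). The second Chd2 site (chr7:73595188-73595787), 53.4 kb away, had 17.2 and 5.49 against 12.9 to 40.1, which overlapped. In Arid1b, which encodes a subunit of the BAF remodelling complex, chr17:5138745-5139140 ranked below all others, with 11.5 and 16.6 against 20.5 to 51.0 (median 34.0). Of the 7 remodeller sites, 1 was thus above and 1 below for RUNX1.

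Cdk6 and Ccnd2, which encode a G1 kinase and a D-type cyclin, had overlapping RUNX1 ranks. At chr5:3502536-3502993 in Cdk6 they were 52.9 and 79.8 in CM +Dox against 19.5 to 61.2 (median 37.7). At chr6:127162790-127163277 near Ccnd2 they were 36.8 and 54.5 against 9.82 to 55.7 (median 33.2).

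MicroRNA hairpins lay within 5 kb of 12 sites, 1.17% of the 1022. The share was 0.654% of distal sites with CHD7 in 1 to 7 lists and 0.922% of those without CHD7. At gene ends it was 1.57% of sites with CHD7 in all 8 lists and 3.06% of those with CHD7 in fewer. The distance was chosen after the data were seen. The site chrX:96239065-96240102 ended 2715 bp before the Mir223 hairpin on the + strand and contained the F630028O10Rik start shown above. miR-223 is abundant in granulocytes and monocytes. RUNX1 ranks there were 97.6 and 98.0 (Control -Dox), 97.9 and 97.7 (Control +Dox), 98.7 and 99.1 (CM -Dox) and 98.5 and 99.3 (CM +Dox). The site was near the top of the order in every library, with overlapping groups, and its CHD7 ranks were 66.7 and 80.6 in CM +Dox and 68.2 to 79.4 (median 77.4) in the others.

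The hairpins of miR-23a, miR-27a and miR-24 lie together on chromosome 8, and the site chr8:84203409-84204573 was 3945 bp from the nearest of them, Mir23a. RUNX1 ranks there were 52.6 and 64.0 (Control -Dox), 18.3 and 43.9 (Control +Dox), 52.4 and 43.1 (CM -Dox) and 79.1 and 84.1 (CM +Dox). The CM +Dox ranks exceeded all others, a shift of 35.9 points, whereas CHD7 ranks overlapped, 76.6 and 24.0 against 1.63 to 36.8 (median 13.5). The site chr10:122986079-122986785 lay 355 bp from the hairpin of let-7i, a member of the let-7 family that is linked to differentiation. Its RUNX1 ranks were 28.2 and 17.9 in CM +Dox and 23.3 to 54.8 (median 41.5) in the others. The site chr11:75460011-75460644, 3072 bp from Mir22, had 28.2 and 15.4 against 22.3 to 60.1 (median 34.9). The CM +Dox ranks of the let-7i and Mir22 sites overlapped the others. Near hairpins not printed, RUNX1 ranks in CM +Dox lay above all others at the sites of Mir7681, Mir2861 with Mir3960, Mir6367 and Mir1894. They lay below at the Mir1904 site and overlapped at those of Mir6546, Mir763 and Mir5124a. At the Mir7681 site CHD7 was above as well. Of all 1022 sites, 13.7% were above and 28.2% below for RUNX1.

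Genes with the most sites were Pde4d and Cd47, with 5 each. Pde4d, a large gene for a cAMP phosphodiesterase, held all 5 inside, and at 4 of them both CM +Dox RUNX1 ranks were below all others. The share below was 28.2% of the 1022 sites and 28.8% of all 2920 distal RUNX1 sites. Counts within a gene are small and were not tested. The most marked was chr13:109921602-109922594, with 98.2 and 98.6 (Control -Dox), 98.1 and 97.8 (Control +Dox), 96.5 and 97.3 (CM -Dox) and 55.5 and 49.3 (CM +Dox). At chr13:109907689-109908068 the ranks were 24.7 and 29.8 against 56.8 to 78.0 (median 69.8). CHD7 ranks at both sites overlapped, with 24.9 and 26.3 against 15.9 to 62.1 and 40.0 and 74.7 against 66.4 to 80.4. Only the site at chr13:109231883-109232428, with 49.8 and 67.7 against 14.2 to 77.7, overlapped for RUNX1.

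Cd47 encodes the surface protein that inhibits phagocytosis of the cell. Of its 5 sites, 1 inside and 4 outside the gene, 3 had both CM +Dox RUNX1 ranks below all others, beside 28.2% of the 1022 sites. At chr16:49951740-49952601 the ranks were 57.3 and 28.1 against 82.3 to 94.3 (median 90.4), and the CHD7 ranks 9.38 and 27.6 against 35.5 to 80.4 (median 53.7). At chr16:49987069-49987540 they were 8.1 and 49.6 against 65.7 to 75.4 (median 71.4) for RUNX1 and 13.4 and 18.9 against 19.4 to 77.2 (median 45.6) for CHD7. Both proteins thus stood lower at these sites. At chr16:49839633-49840648 RUNX1 had 30.6 and 31.1 against 68.6 to 78.4 (median 73.0), but CHD7 had 77.3 and 66.6 within 19.5 to 80.8.

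Rgs1, a regulator of G protein signalling, had 4 sites up to 80.8 kb from the gene. The farthest, chr1:144329922-144330891, had 94.8 and 97.3 in CM +Dox against 93.4 to 97.2 in the others, which overlapped. At chr1:144318167-144318778 RUNX1 ranks were 33.2 and 69.3 against 83.8 to 92.9 (median 88.0). The site next to it (chr1:144317506-144317963) shares its CHD7 peak, so its CHD7 values are the same, and its RUNX1 ranks of 13.7 and 26.8 overlapped 12.9 to 48.9.

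Mbnl1, a splicing regulator, had 4 sites. At chr3:60413734-60414338 RUNX1 ranks were 80.4 and 77.0 against 95.1 to 97.8 (median 96.4) and CHD7 ranks 58.8 and 54.1 against 81.5 to 89.2 (median 86.0), all below. Sgms1, a sphingomyelin synthase, had 4 sites with 1 below, chr19:32238553-32239785, at 42.1 and 43.8 against 64.7 to 77.3 (median 73.8). Arhgap6, a GTPase activator on the X chromosome, and Ssh2, a cofilin phosphatase, had 3 sites each, with 1 below in each gene. At chrX:169106048-169106739 in Arhgap6 the values were 94.3 and 96.7 against 97.3 to 98.9, so a small shift near the top of the order also parted the groups.

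The 10 sites with the highest mean rank over the 16 libraries had RUNX1 ranks of at least 85.3 and CHD7 ranks of at least 66.7 in every library. The highest was chr10:66864153-66864966, 144 kb from Reep3, with a mean RUNX1 rank of 99.8 and a mean CHD7 rank of 89.0. In Sema4d, a semaphorin of immune cells, chr13:51734556-51734990 had a mean RUNX1 rank of 89.8 and a mean CHD7 rank of 96.4. The others were in or near Stard13, Rgs1, Rnf216, Cc2d2b, Klra17, Rbm46, Adipor2 and Sptbn1, with mean RUNX1 ranks of 92.5 to 99.3. Their RUNX1 shifts with induced CM lay between −1.11 (Rbm46) and 3.49 points (Sema4d). The 10 were chosen by the mean over all 16 libraries, CM +Dox included. High ranks in every library and small RUNX1 shifts therefore follow in part from the choice. CHD7 ranks in CM +Dox were below all others at 3 of the 10 and above at 1. The shares were 10.5% and 6.36% of the 1022 sites, and 6.37% and 6.22% of all CHD7 sites called in 8 lists. A count over 10 sites is too small to set against these shares. At the Rbm46 site (chr3:82793611-82794134) and the Klra17 site (chr6:129823852-129824422) they were below, with 74.3 and 67.0 against 78.1 to 84.3 and 74.3 and 68.2 against 78.7 to 89.5. The Sema4d site was also below, with 92.1 and 94.4 against 96.3 to 98.5, and the Stard13 site above, with 93.0 and 91.5 against 84.3 to 90.1.

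The lowest mean ranks belonged to sites near Mef2d, near Yy1 and in Synj2, with mean RUNX1 ranks of 6.64, 4.14 and 10.3. A site could thus be called in every library with a low rank.

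A rank ends at 0 and 100, so a large shift needs a site that stood high or low without the fusion. The most negative RUNX1 shift was in Rere, a corepressor gene, where chr4:150472578-150473299 had 96.1 and 97.6 (Control -Dox), 94.3 and 92.8 (Control +Dox), 83.1 and 95.8 (CM -Dox) and 0.0931 and 17.9 (CM +Dox), a shift of −84.3. CHD7 ranks there overlapped, with 83.3 and 51.9 against 23.4 to 79.9. Near Olfr1226, an olfactory receptor gene, chr2:89196329-89196992 had 5.17 and 1.69 against 78.8 to 93.9 (median 85.8) for RUNX1 and 3.87 and 27.6 against 66.3 to 79.4 (median 74.1) for CHD7. It was among the 5 most negative shifts for both proteins.

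The remaining 3 of the 5 most negative RUNX1 shifts were near Etnk1 (chr6:143348996-143349511), in Dapp1 (chr3:137957641-137958337) and near H2-T24 (chr17:35996936-35997355), with shifts of −69.3, −68.9 and −68.2. In Dapp1, an adaptor of phosphoinositide signalling, CHD7 was also below, at 10.9 and 23.7 against 37.7 to 74.2. In the Ptpn22 promoter site, whose cores are printed above, RUNX1 ranks were 61.2 and 32.4 in CM +Dox against 93.3 to 97.7 (median 96.2). In the Gm34254 site they were 56.4 and 76.7 against 99.4 to 99.9 (median 99.7), without a core in the window. By contrast the Gm39852 site, with a core as close to the RUNX1 centre as that of Ptpn22, had 91.2 and 91.0 against 89.5 to 94.7 (median 93.4), which overlapped. The Nkiras2 site, with the mean CHD7 rank of 99.4, had a mean RUNX1 rank of 12.1, and its CM +Dox values of 32.7 and 18.8 lay above 1.66 to 14.6 (median 6.73).

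The most positive RUNX1 shift was in Pik3ap1, an adaptor of PI3 kinase in B and myeloid cells, where chr19:41344947-41345470 had 2.02 and 32.7 (Control -Dox), 1.89 and 30.2 (Control +Dox), 38.6 and 42.2 (CM -Dox) and 78.4 and 80.4 (CM +Dox). CHD7 ranks there were 79.9 and 85.1 against 5.0 to 58.2 (median 46.8). Both proteins thus ranked above all 6 other libraries, with shifts of 54.8 and 46.2. The Disc1, Mctp1, Zfp36 and Dock4 sites had shifts of 50.1, 46.8, 45.9 and 45.7. At the Mctp1 site (chr13:76395825-76396325) CHD7 was above as well, with 74.3 and 80.6 against 31.3 to 71.9.

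The 5 most negative CHD7 shifts were in Ahi1, LOC108168726 and Fry and near Gsdmc and Olfr1226. In Ahi1 (chr10:21054517-21055250) CHD7 ranks were 84.0 and 82.1 (Control -Dox), 80.7 and 80.4 (Control +Dox), 82.7 and 81.2 (CM -Dox) and 9.53 and 30.2 (CM +Dox). RUNX1 there was 63.6 and 80.4 against 97.5 to 99.6 (median 99.3). At chr15:63647697-63649029, 127 kb from Gsdmc, CHD7 had 9.18 and 7.4 against 51.0 to 81.6 (median 68.0) and RUNX1 88.2 and 94.3 against 98.8 to 99.99 (median 99.7). In Fry (chr5:150184863-150185311) CHD7 was below, at 15.4 and 20.8 against 68.4 to 79.8 (median 75.8), while RUNX1, 54.3 and 86.1 against 79.4 to 90.2 (median 85.9), overlapped.

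The largest positive CHD7 shift was at the Plek site at chr11:17004779-17005323, with a shift of 51.2 points. The Slc24a3, Slc34a1 and Abcb9 sites had CHD7 shifts of 45.0, 43.4 and 43.0. In Slc34a1, a phosphate transporter gene, RUNX1 was above too, at 97.5 and 97.8 against 76.3 to 87.1 (median 80.7). In most of these sites the 6 other CHD7 libraries were widely spread, as in Slc24a3 with 3.34 to 58.9.

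The sites just inside the limit of 1 kb from a gene end were in Ncf1, Ccl9 and Clec12b, at 1.03, 1.04 and 1.05 kb, and had mean RUNX1 ranks of 32.5, 41.1 and 31.5. Just outside it were sites in Clic1 and Dclre1b and near Tbc1d15, at 977, 970 and 949 bp, with mean RUNX1 ranks of 18.3, 58.5 and 79.4. The highest RUNX1 ranks among sites called in 15 of 16 libraries included chr16:92800737-92801251 inside Runx1, with a mean rank of 98.6 and no peak in CM +Dox CHD7 replicate 1, and chr1:39487384-39487833 near Tbc1d8, with 97.6 and the same library missing.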

How the data were processed

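Chromatin of 416B cells was crosslinked with 1% formaldehyde and immunoprecipitated for RUNX1 or CHD7, and libraries were sequenced on an Illumina instrument, per the labels' protocols. An IgG sample was not used here. The tools named in the submitters' processing notes are Bowtie2 2.0.6 and MACS2 2.0.10, with the mm10 build; no source used here gives the depth, filters or control sample. Peaks were called per library, since each has its own list. The score deposited by the authors is the −log10 of the p-value of a peak, and lists end at different thresholds: for RUNX1 1e-09 (5 lists) or 1e-07 (3 lists), for CHD7 0.01 throughout, per the peak names. The score served only to rank peaks within a list.

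Peaks were merged and ranked as described in the report, in Python with numpy and pandas, on chromosomes 1 to 19, X and Y. A site's score was that of its best peak. Genes came from RefSeq GRCm38.p6, the assembly of mm10, without strand or exons. The steps were checked on simulated data. Named sites were taken by rule: the 10 highest mean ranks, the 5 most negative and 5 most positive shifts per antibody among sites without overlap, up to 4 genes per list, the genes with most sites, sites at the limits, and Runx1, Chd7, Cbfb and Myh11. Members, rules and the 10 gene lists were chosen with earlier results of these data known, so the planned permutation tests were not used and no p-values are given. The result of 1 list is not reported here. Alternatives were other thresholds, equal list lengths, a stricter overlap, 5 kb from gene ends, other summaries, and leaving out each library. Same-numbered RUNX1 libraries deviated together (r 0.309 to 0.591 over 6 pairs of conditions, across 4833 sites), those of CHD7 did not (−0.024 to 0.047). The labels do not say what a replicate number stands for.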

Additional observations from a re-analysis of the deposited data

Results flagged for a closer look

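Of 56 results examined for a doxycycline effect of opposite sign in the constructs, 8 single sites met the condition that both CM +Dox libraries lay on one side of the CM -Dox mean and both Control +Dox libraries on the other side of the Control -Dox mean. The difference between the effects was not tested at any of them, and each effect rests on 2 libraries against 2. For the RUNX1 rank, the effect in CM minus the effect in Control was −78.8 points at the Etnk1 site (chr6:143348996-143349511), −58.3 at the H2-T24 site (chr17:35996936-35997355), −32.7 at an Sgms1 site (chr19:32238553-32239785) and −25.6 at a Pde4d site (chr13:109298832-109299254). It was −20.7 at a Plek site (chr11:17004779-17005323), −14.3 at the LOC108168726 site (chr2:3657506-3658486) and −8.01 at the Gsdmc site (chr15:63647697-63649029). At the Zfp36 site (chr7:28380948-28381443), near the gene of an RNA-binding protein that destabilises cytokine transcripts, it was 50.1. The Control effects were small beside the CM effects except in Pde4d, where doxycycline came with 14.9 points more in Control and −10.7 points in CM. Each Control effect includes the Control -Dox RUNX1 library whose peak names carry a +Dox tag.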

How the results depend on the processing

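The replicate block, the mean of the differences within replicate numbers, gave the same values as the differences reported (−12.8 and −3.94 points, −56.1 and −24.3 bp), because each number occurs in every condition, and it changed no other value. With only peaks at or above the median score of their antibody there were 241 sites, and the RUNX1 rank difference was −5.61, the excess over sites without CHD7 26.3 points, the share inside genes 56.8%, and the counts below and above 63 and 51 for RUNX1 and 33 and 19 for CHD7. With the same number of peaks in every list there were 538 sites, a RUNX1 difference of −5.55, 130 RUNX1 counts below, and 64 and 37 CHD7 counts below and above. Both settings hold fewer sites by construction. Ranked among distal sites alone the RUNX1 difference was −2.37. The CHD7 rank difference was −6.37 against CM -Dox only, and −6.52 as the difference of the doxycycline effects; the cause was not tested. The CHD7 width difference turned to 10.5 bp without CM -Dox CHD7 replicate 2 and to 36.3 bp without CM +Dox CHD7 replicate 1. Leaving out each of the 16 libraries gave 1018 to 1174 sites, RUNX1 differences of −17.4 to −3.77, CHD7 differences of −11.7 to −3.11, RUNX1 width differences of −73.7 to −41.7 bp and CHD7 width differences of −105.5 to 36.3 bp. The counts ran from 290 to 461 below and 140 to 328 above for RUNX1, and from 107 to 250 and 65 to 196 for CHD7. Without sites over a promoter window, an alternative chosen after seeing the data, 946 sites gave −12.6 and −3.93 points. A common RUNX1 threshold, a stricter overlap and a limit of 5 kb gave RUNX1 differences of −12.7, −12.2 and −12.0. No shift of a named site reversed under the alternatives where it could be computed. The 52 site values followed were chosen because both CM +Dox ranks lay beyond all 6 others. Leaving out a library could therefore hardly reverse them, and the absence of reversals is no evidence of stability. With only peaks at or above the median score, 29 of these values were not available. Unknown read depth limits every score.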
